A study of Mus musculus with 30 samples.

Results

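C2C12-pMirn0 is the control line of a study of *miR-378* in mouse C2C12 myoblasts, and the change described here is that between d3 and d6 of its differentiation without BMP2. The comparison uses 6 of the 30 arrays of the series, 3 labelled d3 and 3 labelled d6, and covers all 45101 probe sets of the Affymetrix GeneChip Mouse Genome 430 2.0 array. Of these, 34958 carry 1 gene symbol and stand for 18194 genes. C2C12 is a myoblast line from mouse muscle. C2C12-pMirn0 cells carry the empty lentivector, which expresses the fluorescent protein copGFP, and both d3 and d6 samples carry it. They are a pool of cells sorted on copGFP, not a clone. The cells were grown in newborn calf serum and then switched at d0 to medium with less of it, under which they form myotubes. Used for comparison are the d3 and d6 arrays of C2C12-pMirn378, which carries the vector with *miR-378* and received no BMP2, and those of C2C12-pMirn0 in 300 ng/ml BMP2, a bone morphogenetic protein that turns these cells toward the osteoblast lineage. Each group has 3 arrays. The study describes the replicates as biological, from triplicate experiments.

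Myotubes form when myoblasts leave the cell cycle and fuse, under the control of myogenic transcription factors of the MyoD family and their partner Mef2. The contractile proteins come first as embryonic and slow forms, and adult fast forms, calcium-handling proteins and metabolic enzymes follow as the myotube matures. Cultures of C2C12 also keep some mononucleated cells that do not fuse, and the arrays measured RNA of the whole culture.

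The values are linear intensities, with no detection call. Medians of the 6 arrays lay between 68.0 and 81.2, and the median of all values of the series was 76.5, which serves here as the limit below which a probe set is called dim. Over bright probe sets, the log2 values of arrays of the same day correlated at 0.987 to 0.989, and those of d3 with d6 arrays at 0.978 at most. On the log2 scale, replicates of the median bright probe set had an SD of 0.15 and those of the median dim one of 0.86, so that low values carry most of the error. Of 10 myotube markers none was dim, and their summed intensity was 108103 to 122355 at d3 and 122994 to 135721 at d6. Of the other lists of cell type markers, all 8 endothelial genes were dim at both days, as were 7 of 10 macrophage genes (*Ptprc* 8.9 and 9.56), 5 of 6 chondrocyte genes and 4 of 7 adipocyte genes (*Adipoq* 16.3 and 11.7). Dim too were 4 of 6 osteoblast, 4 of 8 neuron and Schwann cell, 3 of 7 fibroblast and 2 of 10 satellite and reserve cell genes. Over all 18194 genes 7119 were dim at both days. The summed level of 7 fibroblast genes was 4225 to 4538 at d3 and 4964 to 5781 at d6, with *Pi16* called higher, from 25.7 to 134 (log2 ratio 2.42, adjusted p = 0.00409), and that of 6 osteoblast genes was 391 to 440.4 at d3 and 272 to 322 at d6, with *Phex* called lower. The call of *Pi16* was lost without d3 replicate 2 or 3, or d6 replicate 1, 2 or 3 (smallest log2 ratio 2.17, largest adjusted p = 0.0275). Apart from *Casq1* of the myotube list, no member of the other marker lists was called, yet some sums did not overlap between the days: 6 myoblast genes summed to 38119 to 42126 at d3 and 34363 to 36813 at d6, 10 satellite and reserve cell genes to 12020.4 to 12423 and 12641 to 13070, and 5 epithelial genes, of which 2 were dim, to 477 to 602 and 729 to 807, and the 6 chondrocyte genes, of which 5 were dim, to 509.6 to 588 and 590.0 to 642. Such sums follow their brightest members, and groups of 3 arrays can separate without a change. How often the sums of other genes separate was not tested. The part of these cell types in the results below was not tested.

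Between d3 and d6, 439 probe sets were higher (0.973% of those tested) and 434 were lower (0.962%) by limma over all 30 arrays. The thresholds for a call, an adjusted p of 0.005 and a log2 ratio of 0.6 in either direction, are the study's own. The groups of 3 arrays overlapped for 1 of the 873 probe sets called, so that separate arrays add little to a call, and 48 were dim. With 1 gene symbol, 411 probe sets of 330 genes were higher and 361 probe sets of 296 genes were lower. With 1 probe set a gene, the brightest over the 30 arrays, as in all counts of gene lists here, 278 of 18194 genes were higher (1.53%) and 177 lower (0.973%). Of these 18194 genes 4604 had an unadjusted p under 0.05 by limma. Counts in the gene lists below are to be read against these. In the same line 4018 probe sets were higher (8.91%) and 4124 lower (9.14%) at d3 than at d0, a comparison that shares the d3 arrays. The calls rest on the spread pooled over the 10 groups. In a fit of the 6 arrays alone, which has 4 residual degrees of freedom, 8 probe sets were called higher and 1 lower, and 7588 probe sets had an unadjusted p under 0.05. All 873 are among these in the same direction, as follows largely from their choice on the same arrays. No member of the early or the stress gene list described below passed in that fit, and 1 matricellular gene did. The arrays hold bulk RNA, so that a change in the share of a cell type and a change in RNA per cell cannot be told apart.

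The genes with the largest rises included matrix proteins and a group of transcripts that were near background at d3. *Postn*, which encodes the matricellular protein periostin, measured 1123, 1040.1 and 1139.8 at d3 and 11876, 10803 and 10504 at d6. Every d6 array was thus many times brighter than every d3 array (log2 ratio 3.33, SE 0.09, adjusted p = 4.02e-16). *Cilp*, another secreted matrix protein, measured 281, 269.7 and 317 at d3 and 3039.9, 3166 and 3128 at d6 (log2 ratio 3.43, SE 0.28, adjusted p = 2.42e-08). *Cd24a*, a cell surface sialoglycoprotein, rose from 115 to 1446 (log2 ratio 3.66, adjusted p = 3.13e-12) and *Col25a1*, a transmembrane collagen, from 77.9 to 1022 (log2 ratio 3.72, adjusted p = 0.00047). Both were separate between the days in all arrays, as the rule for the largest rises requires. *Mcpt8*, known as a protease of basophils, rose from 109.9 to 904 (log2 ratio 3.04, adjusted p = 6.46e-05) after 1289.8 ± 131 at d0.

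*Ighm*, the constant region of the immunoglobulin mu heavy chain, had the largest ratio of the genes named by the rule. It measured 8.78, 14.7 and 47.8 at d3 and 1084, 1146 and 995 at d6 (log2 ratio 5.87, SE 0.56, adjusted p = 2.6e-07). The d3 values lay below the median of all values, so that the ratio depends on how background is treated. With intensities under 50 set to 50 the log2 ratio was 4.42. The same holds for *Asprv1*, a skin aspartic protease, which measured 4.92, 34.2 and 16 at d3 and 372, 494 and 429.9 at d6. Its log2 ratio was 4.95, and 3.10 with the limit at 50. *Gja5*, the gap junction protein connexin 40, measured 9.44, 5.04 and 2.71 at d3 and 124, 111 and 126 at d6 and *Apol8*, an apolipoprotein L, 20.6, 7.7 and 18.2 at d3 and 306, 306 and 324 at d6. Their log2 ratios were 4.57 and 4.45, and 1.27 and 2.64 with the limit. *Cxcr6*, the receptor of the chemokine Cxcl16, measured 1.26, 6.71 and 7.68 at d3 and 90.3, 126 and 99.9 at d6 (log2 ratio 4.70, SE 0.72, adjusted p = 0.00013), with a log2 ratio of 1.06 with the limit. *Ighm* and *Cxcr6* each have a brighter probe set, which was called higher too (log2 ratio 3.19 and 2.68). *Tspan8*, a tetraspanin, rose from 46.5 to 631 (log2 ratio 3.77) and the calcium-binding protein gene *Tesc* from 14.9 to 191 (log2 ratio 3.74). The call of *Hdc*, the histidine decarboxylase that makes histamine, was lost with the limit (4.03, 6.15 and 4.5 at d3 and 69, 109 and 104 at d6, log2 ratio 4.26 against 0.88). *Rnase6* and *Clip4* closed the 15 largest rises, from 41.1 to 269 (log2 ratio 2.72) and from 44.8 to 248 (log2 ratio 2.84). The call of *Clip4* was lost without d3 replicate 1, or d6 replicate 1, 2 or 3 (smallest log2 ratio 2.00, largest adjusted p = 0.0282) and that of *Rnase6* without d3 replicate 2 or 3, or d6 replicate 1 (smallest log2 ratio 2.63, largest adjusted p = 0.00516).

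The genes with the largest falls included a growth factor, a sarcomere protein, cytokine genes and a receptor. *Ptn*, which encodes the heparin-binding growth factor pleiotrophin, measured 3925, 4571 and 3305 at d3 and 749, 608 and 692 at d6 (log2 ratio -2.52, SE 0.16, adjusted p = 5.49e-10). It had been at 228 ± 19.3 at d0, so that the d3 level stood above both neighbouring days. *Ankrd2*, an ankyrin repeat protein of the sarcomere that is known to respond to stretch, measured 6614, 6431 and 7089 at d3 and 2240.4, 2192 and 1966 at d6 (log2 ratio -1.66, SE 0.14, adjusted p = 4.64e-08). *Tm6sf1*, a membrane protein, fell from 3191 to 1117 (log2 ratio -1.52) and *Il1r1*, the signalling receptor of interleukin 1, from 1052 to 385 (log2 ratio -1.45). The chemokine genes *Ccl9* and *Cxcl5* fell from 436 to 105 (log2 ratio -2.06) and from 762 to 204 (log2 ratio -1.90). *Dhrs3*, an enzyme that reduces retinaldehyde, measured 279, 387 and 309.8 at d3 and 91.3, 76.3 and 98.2 at d6 (log2 ratio -1.87, SE 0.16, adjusted p = 6.47e-08). *Plac8* fell from 635 to 209 (log2 ratio -1.61) and *Phex*, a peptidase known from bone and here one of the osteoblast markers, from 162 to 48.9 (log2 ratio -1.74). Like that of *Phex*, the falls of 6 further genes ended below the median of all values, those of *Fbln7* from 201 to 40.0 (log2 ratio -2.48), *Kalrn* from 91.6 to 29.3 (log2 ratio -1.78), *Ap3d1* from 90.2 to 28.7 (log2 ratio -1.67), *Phka2* from 192 to 66.7 (log2 ratio -1.52), *Ripor3* from 78 to 19.9 (log2 ratio -2.15) and *Gpr1* from 79.7 to 26.3 (log2 ratio -1.62). The call of *Ripor3* was lost with intensities under 50 set to 50 (log2 ratio -0.61) and without d3 replicate 1, 2 or 3, or d6 replicate 2 or 3 (smallest log2 ratio -1.75, largest adjusted p = 0.0297), and that of *Gpr1* without d3 replicate 1, or d6 replicate 1 (smallest log2 ratio -1.49, largest adjusted p = 0.00527). On their brightest probe sets, which are not these, *Ripor3*, *Kalrn* and *Ap3d1* were not called (log2 ratio 0.09, -0.02 and -0.05). The plot of single arrays shows these 15 genes beside the 15 largest rises.

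**Figure D1:**
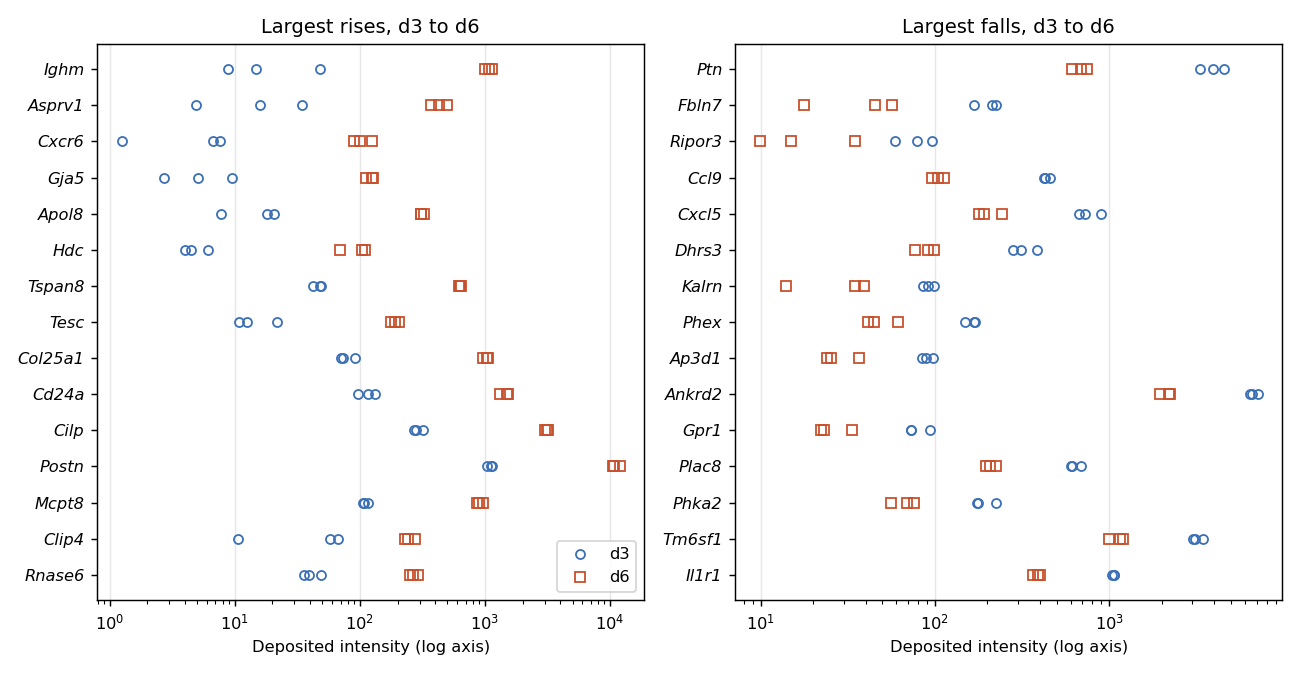
Deposited intensity (log axis) of the 15 genes with the largest rise (left) and the 15 with the largest fall (right) between d3 and d6 in C2C12-pMirn0 without BMP2, 1 point per array (circles d3, squares d6). *Postn* and *Cilp* moved at high intensity, whereas *Cxcr6*, *Gja5* and *Hdc* stayed under 10 at d3.

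Most sarcomere genes did not pass the test between d3 and d6. Of the genes that the study plots for myogenesis, *Myog*, the myogenic factor that drives fusion and differentiation, measured 21813, 19625 and 20407 at d3 and 17328, 17079 and 15532 at d6. The d6 arrays were all lower, and the difference did not pass the thresholds (log2 ratio -0.31, SE 0.08, adjusted p = 0.00983). *Ckm*, the muscle creatine kinase, measured 8427, 8781 and 10452 at d3 and 9864, 8971 and 8844 at d6, groups that overlap (log2 ratio 0.01, SE 0.17, adjusted p = 0.991). *Tnnc2*, fast skeletal troponin C, was 18663 ± 2001 at d3 and 21271 ± 1661 at d6 (mean ± SD, n = 3), *Actn3*, the fast alpha-actinin of the Z-disc, 12692 ± 862 at d3 and 13220.2 ± 616 at d6, and *Chrng*, the embryonic subunit of the acetylcholine receptor, 6997 ± 503 at d3 and 7953 ± 462 at d6. None of these 4 passed the test (adjusted p = 0.991, 0.284, 0.803 and 0.504). *Mef2c*, the partner factor of MyoD proteins, was the exception. It measured 5754, 4816 and 4715 at d3 and 12879, 11070.4 and 11083 at d6, with no overlap (log2 ratio 1.20, SE 0.11, adjusted p = 1.82e-07), after 415 ± 19.1 at d0. It was the only one of 12 measured myogenic regulators called. *Myod1* was 2895 ± 102 at d3 and 2348 ± 37.3 at d6 (log2 ratio -0.30, adjusted p = 0.0114) and *Myf6*, the factor of late differentiation, 118 ± 7.48 at d3 and 339 ± 24.8 at d6 (log2 ratio 1.52, adjusted p = 0.00672). *Myf6* was called under 7 of the alternatives, among them values under 50 set to 50 (log2 ratio 1.52, adjusted p = 5.73e-07).

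Among 8 sarcomeric myosin heavy chains, the motor proteins of the thick filament, 1 was lower (12.5%, against 0.973% of all genes) and none higher. *Myh7*, the slow chain, measured 8086, 7947 and 9040.0 at d3 and 4527, 3921 and 3804 at d6, so that every d6 array lay below every d3 array (log2 ratio -1.03, SE 0.14, adjusted p = 2.45e-05). *Myh3*, the embryonic chain, was 18917 ± 1456 at d3 and 19287 ± 1387 at d6 and *Myh1*, the adult fast IIx chain, 22342 ± 1266 at d3 and 26886 ± 1922 at d6, and neither was called (log2 ratio 0.03, adjusted p = 0.941 and log2 ratio 0.27, adjusted p = 0.107). The reading of *Myh1* came from a probe set that can match other transcripts. *Myh4*, the adult fast IIb chain, measured 2719, 2494 and 3046 at d3 and 13123, 12453 and 13866 at d6. These groups do not overlap, and the log2 ratio was 2.26 with an SE of 0.72 and an adjusted p of 0.0529, which misses the threshold. The SE takes its spread from all groups, and *Myh4* was at 76.8 ± 14.3 at d0 and at 26.8 ± 5.74 at d3 and 23.5 ± 17.7 at d6 with BMP2. With an offset of 16 added to each value, or with values under 50 set to 50, *Myh4* was called (log2 ratio 2.25 and 2.26, adjusted p = 2.51e-05 and 3.14e-13). *Myh8*, the perinatal chain, was 4300.3 ± 231 at d3 and 2497 ± 577 at d6 and was not called (log2 ratio -0.81, adjusted p = 0.547). The levels of *Myh3*, *Myh1*, *Myh4* and *Myh7* and of 5 other muscle genes at d0, d3 and d6 are shown for both lines in the time course plot.

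None of 7 muscle myosin light chains and none of 11 troponins and tropomyosins was called by limma. An unadjusted p under 0.05 was found for 3 and 4 of them, against 4604 of all 18194 genes. Their median log2 ratios were 0.19 and 0.17, against -0.03 over all genes. These counts read the brightest probe set of each gene. On other probe sets *Tpm3* was called higher (log2 ratio 1.21 and 1.06) and *Tpm2* lower (log2 ratio -1.06), as described below. With all probe sets of a gene averaged, 1 of the troponins and tropomyosins was higher. Of 35 measured thin filament, Z-disc and titin genes 1 was higher and 4 were lower (2.86% and 11.4%, against 1.53% and 0.973% of all genes). *Tcap*, the titin cap, measured 820.1, 941 and 937 at d3 and 2535, 2550.3 and 2240.2 at d6 (log2 ratio 1.44, SE 0.12, adjusted p = 5.43e-08). *Ankrd2*, described above, fell most. *Ldb3*, a PDZ-LIM protein that binds alpha-actinin in the Z-disc, fell from 5979 to 3692 (log2 ratio -0.70, adjusted p = 9.49e-08). *Nrap*, an anchoring protein of nascent myofibrils, fell from 1874 to 1209.7 (log2 ratio -0.63) and *Flnc*, the muscle filamin, from 3052 to 1613 (log2 ratio -0.92) on a probe set whose probes can match other transcripts. The call of *Nrap* was lost without any 1 of the 6 arrays (smallest log2 ratio -0.57, largest adjusted p = 0.0141), and so was that of *Flnc* without any 1 of the 6 arrays (smallest log2 ratio -0.86, largest adjusted p = 0.0224). Fast fibre isoforms counted 2 of 12 higher (16.7%, against 1.53% of all genes) and slow ones 1 of 10 lower (10%, against 0.973%). Their medians were 0.27 and 0.02. These lists share members with other muscle lists, so that the counts are not separate results. The slow isoform called was *Myh7*, counted above. Leaving out any 1 array gave 1 fast isoform higher. Of 7 developmental isoforms *Ncam1*, a cell adhesion molecule, was lower, from 3721 to 2042 (log2 ratio -0.87, adjusted p = 5.25e-10).

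**Figure D2:**
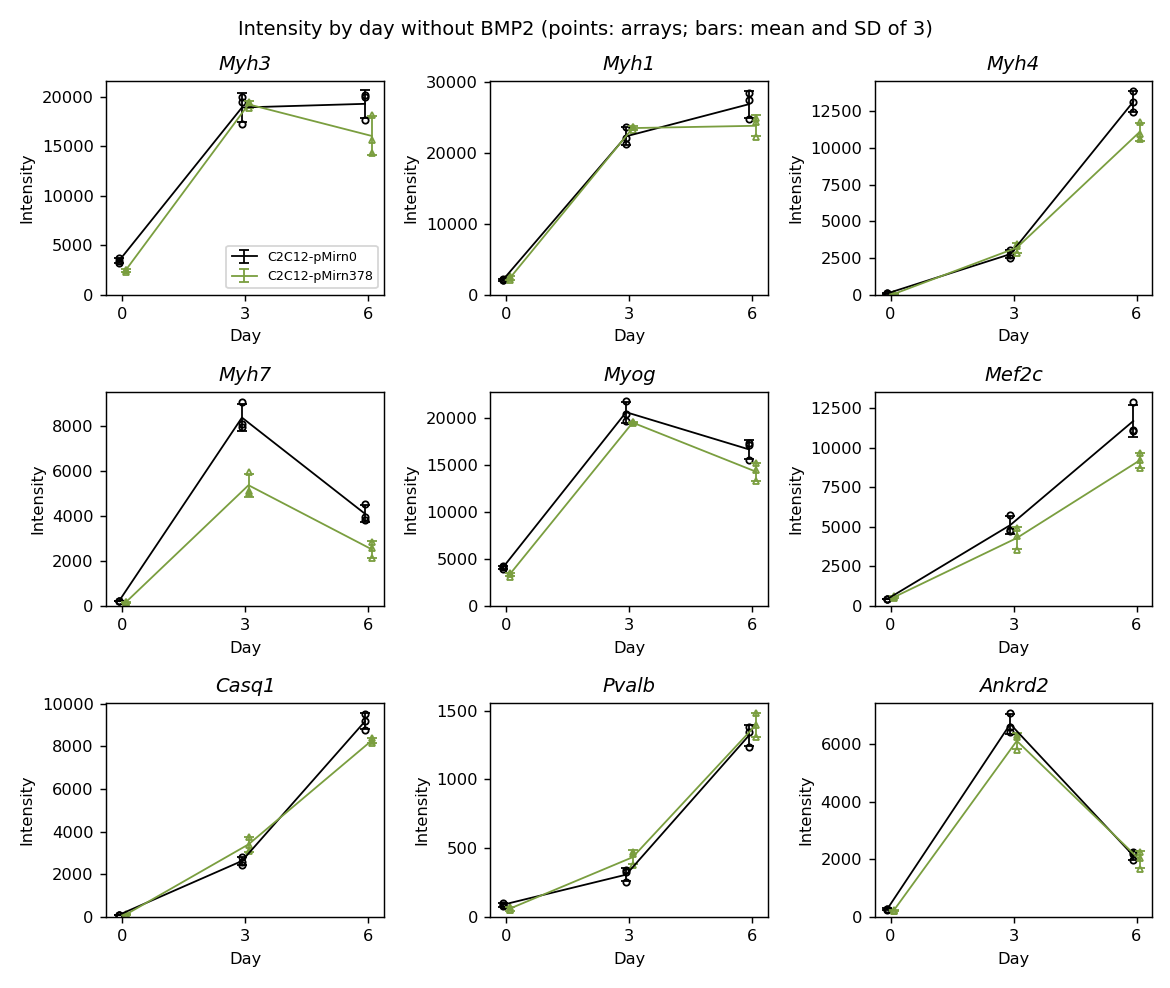
Intensity (linear axis from 0) at d0, d3 and d6 without BMP2 of 9 muscle genes in C2C12-pMirn0 (black circles) and C2C12-pMirn378 (green triangles), 1 point per array with the mean and SD of 3 arrays. In C2C12-pMirn0 *Myh3* and *Myh1* differed little between d3 and d6 and were not called, *Mef2c*, *Casq1* and *Pvalb* rose, *Myh4* was higher on all 3 d6 arrays without passing the test, and *Myh7* and *Ankrd2* were lower. The probe set of *Myh1* can match other transcripts.

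Genes of excitation-contraction coupling, which store and release calcium for contraction, counted 4 higher and none lower of 24 (16.7%, against 1.53% of all genes). The median log2 ratio of the list was -0.19. *Casq1*, the calcium-binding protein of the fast sarcoplasmic reticulum, measured 2590.4, 2448 and 2825 at d3 and 8791, 9195 and 9538 at d6 (log2 ratio 1.81, SE 0.11, adjusted p = 3.83e-10), after 90.2 ± 13 at d0. *Pvalb*, the cytosolic calcium buffer of fast fibres, measured 326, 253 and 339.8 at d3 and 1382, 1345 and 1233 at d6 (log2 ratio 2.12, SE 0.44, adjusted p = 0.00285). *Trdn*, the triadin that anchors calsequestrin at the calcium release channel, rose from 2015 to 4237 (log2 ratio 1.08, adjusted p = 0.000543) on a probe set that can match other transcripts. *Cav3*, the muscle caveolin, rose from 1895 to 3398 (log2 ratio 0.84, adjusted p = 0.00308). The d3 and d6 arrays of all 4 were separate, as for nearly all probe sets called. The call of *Pvalb* was lost without any 1 of the 6 arrays (smallest log2 ratio 1.99, largest adjusted p = 0.0184) and that of *Cav3* without any 1 of the 6 arrays (smallest log2 ratio 0.77, largest adjusted p = 0.0203). None of 9 muscle ion channels and none of 11 genes of the dystrophin complex was called (1 and 7 at an unadjusted p under 0.05, against 4604 of all 18194 genes). Of 16 genes of the neuromuscular junction, *Erbb3*, a receptor for neuregulin, was lower, from 5519.7 to 3227 (log2 ratio -0.77, adjusted p = 4.47e-06).

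Genes of myoblast fusion counted 2 lower and none higher of 20 (10% lower, against 0.973% of all genes). *Mymx*, the fusion peptide myomixer, measured 10973, 11602 and 12022 at d3 and 6883, 7209.9 and 7461 at d6 (log2 ratio -0.68, SE 0.11, adjusted p = 0.000285), and *Cdh2*, N-cadherin, fell from 8896 to 5649 (log2 ratio -0.65, adjusted p = 0.000194), the latter with a call that was lost without d3 replicate 1, or d6 replicate 2 (smallest log2 ratio -0.59, largest adjusted p = 0.00229). Of 16 muscle chaperones the small heat shock proteins *Hspb7* and *Hspb3* rose from 2182 to 4133 (log2 ratio 0.92, adjusted p = 0.000147) and from 1017 to 1714 (log2 ratio 0.75, adjusted p = 0.00303). The call of *Hspb3* was lost without any 1 of the 6 arrays (smallest log2 ratio 0.68, largest adjusted p = 0.0215).

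Few genes of energy metabolism passed the test. None of 17 muscle-type energy enzymes did (10 at an unadjusted p under 0.05, against 4604 of all 18194 genes, median log2 ratio 0.25). Of 60 measured genes of the respiratory chain and ATP synthase only *Cox7a1*, the heart and muscle form of a cytochrome oxidase subunit, was called. It measured 165, 163 and 202 at d3 and 578, 575 and 505 at d6 (log2 ratio 1.65, SE 0.18, adjusted p = 1.42e-06). The median over the list was 0.14, and 47 of 60 ratios were positive, against 8467 of 18194 over all genes. Of the 60 genes 30 had an unadjusted p under 0.05. In C2C12-pMirn378 the median of the list was -0.04, and in C2C12-pMirn0 with BMP2 it was 0.13. Of 32 genes of fatty acid oxidation and the TCA cycle, *Acaa2*, a thiolase of mitochondrial beta-oxidation, rose from 2374 to 3602 (log2 ratio 0.60, adjusted p = 1.87e-06) and *Pdk4*, the kinase that inhibits pyruvate dehydrogenase, from 486 to 740.4 (log2 ratio 0.61, adjusted p = 2.12e-05), while *Lpl*, the lipoprotein lipase, fell from 4421 to 2917 (log2 ratio -0.60, adjusted p = 0.000145). These 3 lay close to the fold threshold, and the call of *Acaa2* was lost without d3 replicate 1 or 2, or d6 replicate 2 (smallest log2 ratio 0.57, largest adjusted p = 3.52e-05), that of *Pdk4* without d3 replicate 1 or 3, or d6 replicate 3 (smallest log2 ratio 0.54, largest adjusted p = 0.0003) and that of *Lpl* without d3 replicate 2 or 3, or d6 replicate 1 or 3 (smallest log2 ratio -0.56, largest adjusted p = 0.00153). *Ppargc1b*, a coactivator of mitochondrial genes, was the 1 of 11 PGC-1 and ERR regulators called, from 737 to 459 (log2 ratio -0.68, adjusted p = 0.00171), and its call was lost without d3 replicate 1 or 3, or d6 replicate 2 or 3 (smallest log2 ratio -0.62, largest adjusted p = 0.0141). None of 31 proteasome genes, 20 genes of muscle protein breakdown or 28 ribosomal protein genes was called. At an unadjusted p under 0.05 were 7, 6 and 1 of them, against 4604 of all 18194 genes. *Ctsd*, cathepsin D, rose from 6304 to 10035 (log2 ratio 0.67, adjusted p = 2.2e-08) and was the 1 of 26 lysosomal genes called.

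The largest share of members called in a list was that of the immediate early and AP-1 genes, which cells transcribe within minutes of a growth factor or mechanical stimulus. Of 26 members 8 were higher (30.8%) and 1 was lower (3.85%), against 1.53% and 0.973% of all genes. *Fos*, which forms the transcription factor AP-1 with Jun, measured 298, 259 and 269 at d3 and 742, 769 and 835 at d6 (log2 ratio 1.51, SE 0.09, adjusted p = 5.49e-10). *Egr1*, a zinc finger factor of the same response, measured 5709, 4868 and 5637 at d3 and 10979, 9939.9 and 9464 at d6 (log2 ratio 0.91, SE 0.11, adjusted p = 1.29e-05). *Egr2* and *Egr3*, of the same family, rose from 319 to 802 (log2 ratio 1.33) and from 1816 to 2953 (log2 ratio 0.70). All arrays of d6 were above those of d3 for these 4, a separation that nearly all called probe sets share. *Ier3*, an early gene that promotes survival, rose from 1239 to 3219.9 (log2 ratio 1.38, adjusted p = 8.69e-12). *Dusp6* and *Dusp5*, phosphatases that shut off ERK, rose from 1209 to 2066 (log2 ratio 0.77, adjusted p = 8.26e-07) and from 172 to 338 (log2 ratio 1.02, adjusted p = 0.00295), and the orphan nuclear receptor gene *Nr4a1* from 599 to 939 (log2 ratio 0.66, adjusted p = 0.000591). *Klf2*, a zinc finger factor, went against them and fell from 858 to 526 (log2 ratio -0.71, adjusted p = 0.00102), a call that was lost without d3 replicate 3, or d6 replicate 2 or 3 (smallest log2 ratio -0.59, largest adjusted p = 0.0101). The call of *Dusp5* was lost without d3 replicate 2 or 3, or d6 replicate 1, 2 or 3 (smallest log2 ratio 0.75, largest adjusted p = 0.0249) and that of *Nr4a1* without d3 replicate 3 (log2 ratio 0.55, adjusted p = 0.006). *Jun* and *Fosb* were not called (log2 ratio 0.08 and -0.37).

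The promoter of *Dusp5* is printed since it holds a pair of CArG boxes, the sequence bound by serum response factor, which drives many early genes. The window runs from 250 bases before to 50 after the start of the RefSeq transcript (GRCm38.p6), and capitals mark the matches.
*Dusp5*, chr19:53528895-53529194, plus strand: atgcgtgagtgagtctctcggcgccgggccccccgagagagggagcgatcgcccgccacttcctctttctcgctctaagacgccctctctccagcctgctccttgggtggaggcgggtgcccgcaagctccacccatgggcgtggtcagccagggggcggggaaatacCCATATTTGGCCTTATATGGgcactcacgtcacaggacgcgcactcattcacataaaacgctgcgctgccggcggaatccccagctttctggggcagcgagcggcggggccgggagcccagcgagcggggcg
A CArG box, searched on both strands, was in the windows of 1.81% of 27025 genes with a window. Of 21 early genes with a window 3 held it (*Dusp5*, *Egr2* and *Zfp36*), and 2 of the 6 that were called higher and have a window. A match describes the sequence and is not a measured binding site.

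Genes of the unfolded protein response and of amino acid stress counted 7 lower and none higher of 32 (21.9%, against 0.973% of all genes), with a median log2 ratio of -0.26. The members that fell were factors induced by stress, amino acid transporters and enzymes, and no chaperone was among them. *Atf3*, a transcription factor induced by stress, measured 974, 876 and 998 at d3 and 403, 398 and 419 at d6 (log2 ratio -1.22, SE 0.13, adjusted p = 1.71e-06). *Sesn2*, a leucine sensor that restrains mTORC1, fell from 833 to 376 (log2 ratio -1.15, adjusted p = 2.1e-05). *Chac1*, which degrades glutathione, measured 3696, 3796 and 4014 at d3 and 2554, 2451 and 2287 at d6 (log2 ratio -0.66, SE 0.10, adjusted p = 8.72e-05). *Slc7a5* and *Slc3a2*, the light and heavy chains of the large amino acid transporter, measured 9850.2, 9736 and 10191 at d3 and 5793, 6031 and 5461 at d6 and 8500.2, 8421 and 8033 at d3 and 5411, 5209 and 4542 at d6. Both chains of the transporter fell (log2 ratios -0.79 and -0.72, adjusted p = 0.000175 and 4.88e-06). *Mthfd2* and *Shmt2*, mitochondrial enzymes of one-carbon metabolism, fell from 9426 to 5734 (log2 ratio -0.72, adjusted p = 2.88e-05) and from 3781 to 1864 (log2 ratio -1.02, adjusted p = 2.28e-08). The last reading came from a probe set that can match other transcripts.  *Hspa5*, the main chaperone of the endoplasmic reticulum, was 10749 ± 143 at d3 and 11859 ± 1258 at d6 (log2 ratio 0.14, adjusted p = 0.5). *Ddit3*, the CHOP factor, was 1879 ± 130.03 at d3 and 1606 ± 149 at d6 (log2 ratio -0.23, adjusted p = 0.211). *Atf4*, the factor that binds amino acid response elements, was 12724 ± 1194 at d3 and 10459 ± 736 at d6 on its brightest probe set (log2 ratio -0.28, adjusted p = 0.0327). Leaving out any 1 array gave 7 or 8 members lower.

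The promoters of 4 genes are printed since they hold the letters TGATGNAA, the core of the element bound by Atf4 with C/EBP partners. *Atf3* and *Chac1* are members of the list that fell, *Trib3*, a pseudokinase, is a member whose brightest probe set missed the threshold (log2 ratio -0.78, adjusted p = 0.0141), and *Fgf21*, a stress hormone secreted by muscle and liver, is no member and was chosen after its values were seen. That probe set of *Trib3* can match other transcripts. Windows, source and capitals are as for *Dusp5*. In all 4 the match lies on the strand opposite to the printed one, so that the capitals are the reverse complement of the motif.
*Atf3*, chr1:191183284-191183583, minus strand: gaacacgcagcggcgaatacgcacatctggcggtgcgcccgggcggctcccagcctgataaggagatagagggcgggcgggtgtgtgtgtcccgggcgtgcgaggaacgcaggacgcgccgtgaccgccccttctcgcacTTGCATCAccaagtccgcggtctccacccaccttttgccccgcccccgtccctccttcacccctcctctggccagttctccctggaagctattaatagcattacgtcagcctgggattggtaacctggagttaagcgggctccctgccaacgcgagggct
*Chac1*, chr2:119350992-119351291, plus strand: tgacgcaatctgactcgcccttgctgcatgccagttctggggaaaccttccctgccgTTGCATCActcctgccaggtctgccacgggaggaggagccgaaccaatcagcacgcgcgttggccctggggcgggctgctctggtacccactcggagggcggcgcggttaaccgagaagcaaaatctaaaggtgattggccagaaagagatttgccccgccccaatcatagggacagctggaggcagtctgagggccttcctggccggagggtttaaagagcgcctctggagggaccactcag
*Trib3*, chr2:152344011-152344310, minus strand: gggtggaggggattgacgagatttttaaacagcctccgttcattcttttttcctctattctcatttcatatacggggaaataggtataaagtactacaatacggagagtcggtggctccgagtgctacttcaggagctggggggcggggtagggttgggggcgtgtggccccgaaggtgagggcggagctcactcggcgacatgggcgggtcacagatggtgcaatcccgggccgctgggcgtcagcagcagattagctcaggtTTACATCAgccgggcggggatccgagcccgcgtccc
*Fgf21*, chr7:45615441-45615740, minus strand: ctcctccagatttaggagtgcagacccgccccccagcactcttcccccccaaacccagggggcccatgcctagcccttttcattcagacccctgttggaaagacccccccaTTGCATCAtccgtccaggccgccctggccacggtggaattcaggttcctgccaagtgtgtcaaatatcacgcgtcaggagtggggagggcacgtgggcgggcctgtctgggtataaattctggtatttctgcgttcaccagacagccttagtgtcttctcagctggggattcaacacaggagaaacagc
The motif, searched on both strands, was in the windows of 4.51% of 27025 genes. Of 28 members with a window 6 held it (*Asns*, *Atf3*, *Chac1*, *Herpud1*, *Slc7a11* and *Trib3*), and 2 of the 6 that were called lower and have a window. *Fgf21* measured 9304, 8693 and 10099.7 at d3 and 5795, 5664 and 5191 at d6 (log2 ratio -0.75, SE 0.11, adjusted p = 0.000108), after 305 ± 22.1 at d0. All d6 arrays were lower than all d3 arrays, as for nearly all probe sets called lower.

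**Figure D3:**
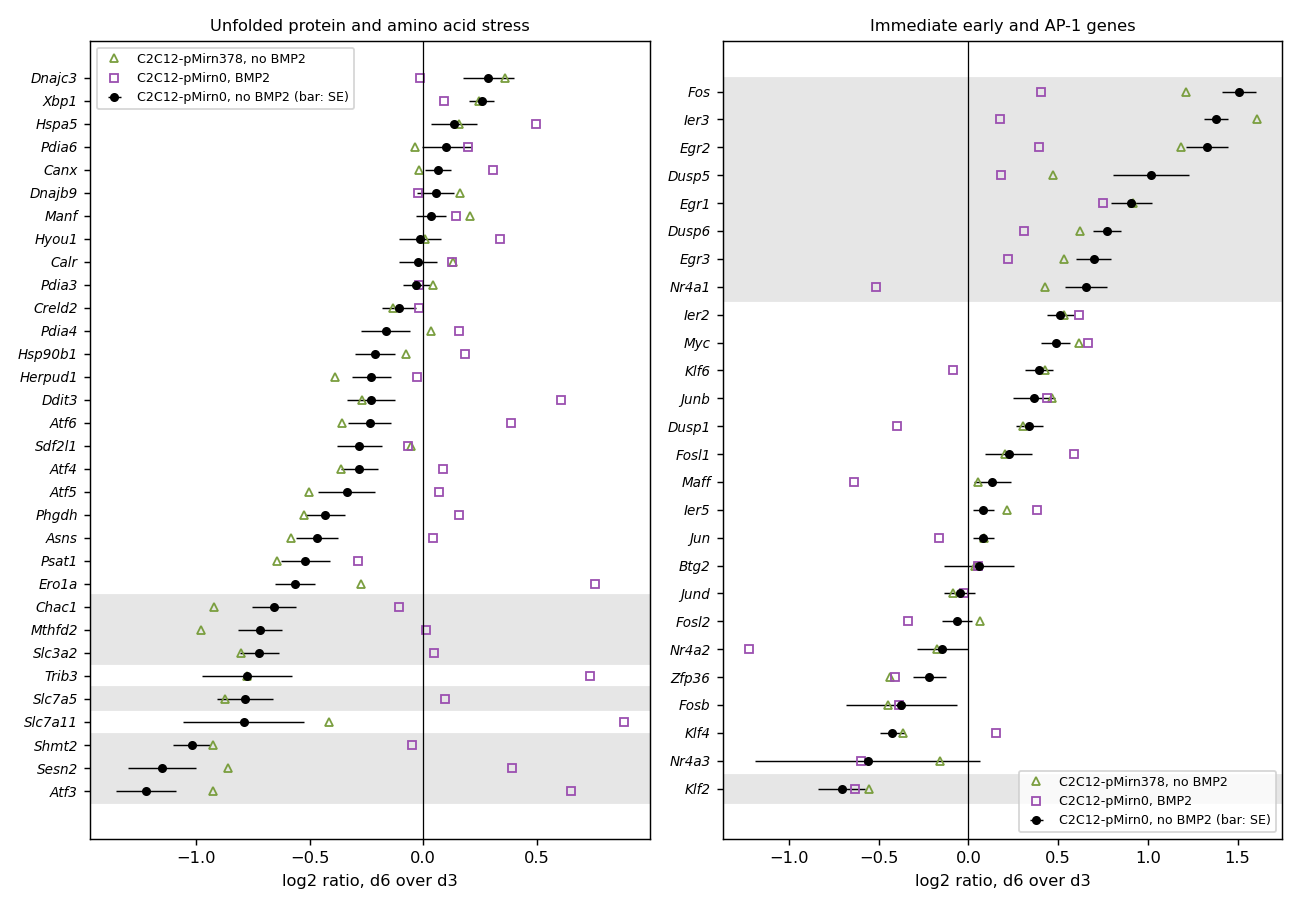
Log2 ratio of d6 over d3 for all 32 members of the unfolded protein and amino acid stress list (left) and all 26 immediate early and AP-1 genes (right), in C2C12-pMirn0 without BMP2 (black, bar SE), C2C12-pMirn378 without BMP2 (triangles) and C2C12-pMirn0 with BMP2 (squares). Grey bands mark the 7 and 9 members called in C2C12-pMirn0 without BMP2, of which *Atf3* was lowest and *Fos* highest.

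In the lists of extracellular matrix genes, read by their brightest probe sets, the members that passed the test rose, apart from a protease. *Fbln7*, a fibulin outside these lists, fell, as described above. Of 32 collagen and basement membrane genes 5 were higher (15.6%, against 1.53% of all genes, median 0.16). *Col8a1*, a short-chain collagen, measured 1112, 1293 and 1121 at d3 and 3027, 3364 and 3291 at d6 (log2 ratio 1.46, SE 0.11, adjusted p = 4.94e-09). *Col12a1*, which decorates collagen fibrils, rose from 3138 to 5730.3 (log2 ratio 0.87, adjusted p = 3.86e-06), *Col11a1* from 82.7 to 254 (log2 ratio 1.62, adjusted p = 0.000445), *Col1a1*, the main fibrillar collagen, from 1032 to 1609 (log2 ratio 0.63, adjusted p = 0.00133) and *Lox*, the oxidase that cross-links them, from 4941 to 7572 (log2 ratio 0.61, adjusted p = 9.84e-06). The call of *Lox* was lost without d3 replicate 3, or d6 replicate 1 (smallest log2 ratio 0.57, largest adjusted p = 0.000163) and that of *Col1a1* without d3 replicate 1 or 2, or d6 replicate 3 (smallest log2 ratio 0.50, largest adjusted p = 0.0132). Of 21 matricellular proteins and small proteoglycans 6 were higher (28.6%, against 1.53% of all genes, median 0.32). Beside *Postn* these were *Tnc*, tenascin C, from 1166 to 2057 (log2 ratio 0.82, adjusted p = 7.59e-08), *Ccn2*, the connective tissue growth factor, from 2824 to 4732 (log2 ratio 0.74, adjusted p = 4.21e-07), *Fmod*, the collagen-binding proteoglycan fibromodulin, from 33.8 to 141 (log2 ratio 2.06, adjusted p = 1.6e-05), and *Mgp*, the matrix Gla protein that inhibits calcification, from 9629 to 15874 (log2 ratio 0.72, adjusted p = 1.69e-05). The reading of *Fmod* came from a probe set that can match other transcripts. *Ccn1*, a matricellular protein close to Ccn2, rose on its brightest probe set, from 2712 to 5063 (log2 ratio 0.90, adjusted p = 1.82e-07). It fell on 2 others, 795 to 463 (log2 ratio -0.78, adjusted p = 1.01e-06), where other transcripts can match, and 757 to 465 (log2 ratio -0.70, adjusted p = 1.32e-05), so that its direction is not settled. With all probe sets of a gene averaged, 4 members of the matricellular list and 2 of the collagen list were higher. Of 17 metalloproteinases and inhibitors 3 were higher (17.6%) and 1 lower (5.88%), against 1.53% and 0.973% of all genes. The inhibitors *Timp3* and *Timp1* rose from 1259 to 3046 (log2 ratio 1.28, adjusted p = 3.04e-09) and from 4372 to 7561 (log2 ratio 0.79, adjusted p = 5.35e-08), and the gelatinase *Mmp2* from 2115 to 3219.6 (log2 ratio 0.61, adjusted p = 0.000189). *Adamts1*, a protease of proteoglycans, fell from 1960.0 to 1232 (log2 ratio -0.67, adjusted p = 5.78e-06). The call of *Mmp2* was lost without d3 replicate 2, or d6 replicate 1 (smallest log2 ratio 0.58, largest adjusted p = 0.0019). The share of each list that was called is shown in the bar plot of gene lists.

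**Figure D4:**
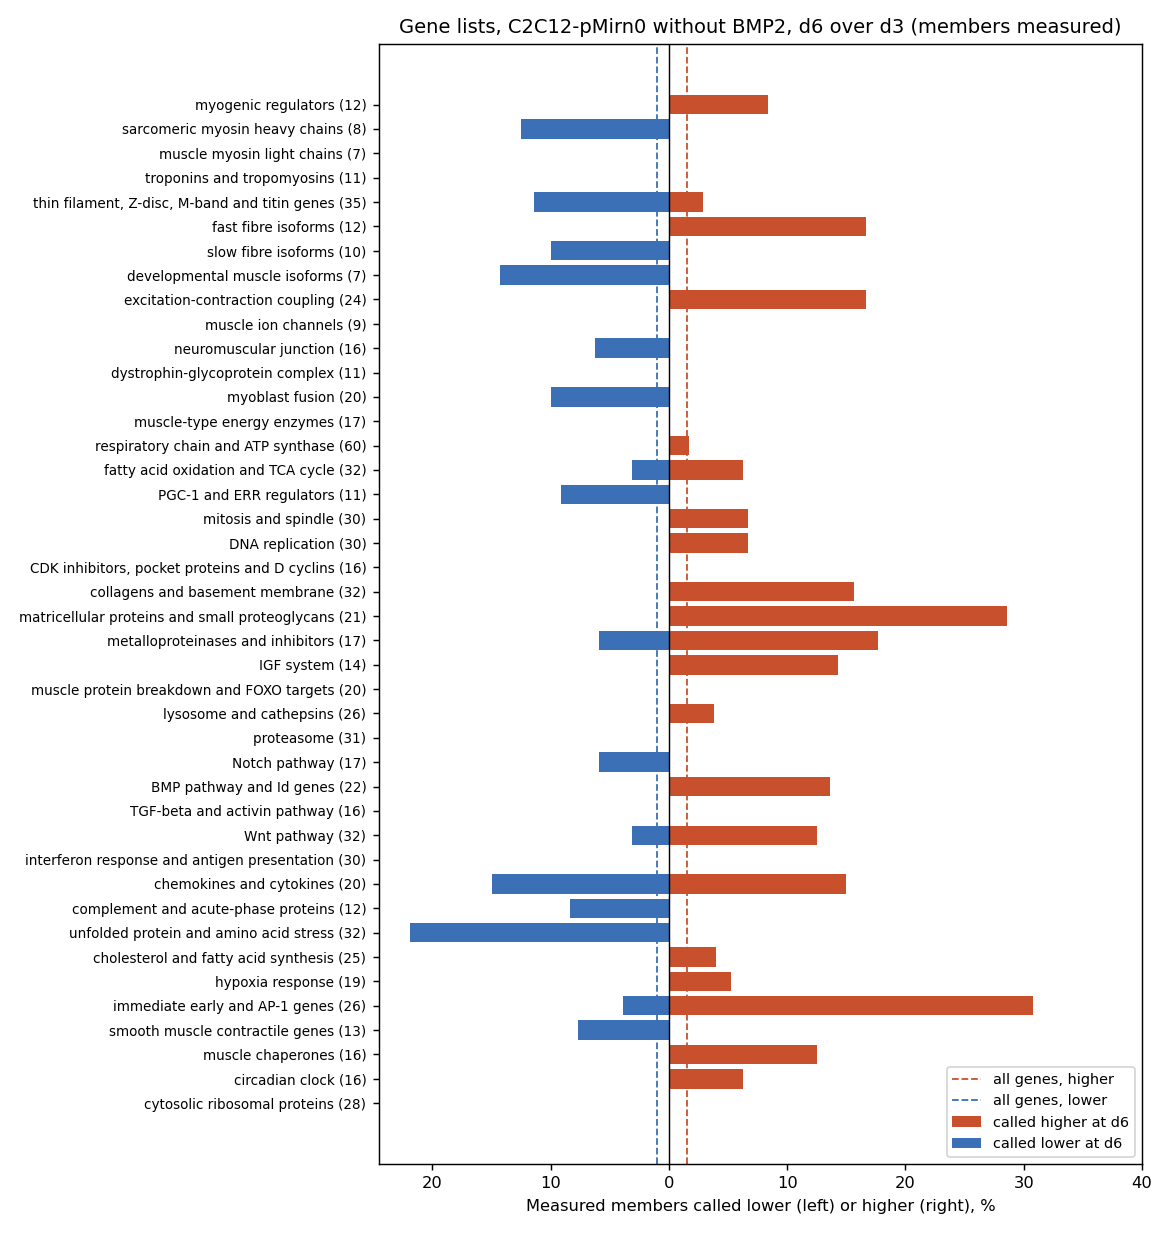
Share of the measured members of 42 gene lists (number measured in brackets) that were called higher (right) or lower (left) at d6 than at d3 in C2C12-pMirn0 without BMP2; dashed lines give the shares over all 18194 genes, 1.53% higher and 0.973% lower. Immediate early genes (30.8% higher) and matricellular proteins (28.6% higher) had the largest shares to the right and the stress genes (21.9% lower) the largest to the left. Each gene is read by its brightest probe set. With all probe sets of a gene averaged, 7 early and 4 matricellular genes were higher and 8 stress genes lower.

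Secreted signals and their pathways showed single members that moved. *Igf1*, the growth factor that drives muscle growth, measured 531, 533 and 514 at d3 and 1436, 1547 and 1473 at d6 (log2 ratio 1.497, SE 0.31, adjusted p = 0.00239), after 27 ± 12.4 at d0. *Igfbp6*, which binds Igf2, rose from 1837 to 3129 (log2 ratio 0.77, adjusted p = 1.43e-07). The other 12 members of the IGF list did not pass the test, and the call of *Igf1* was lost without any 1 of the 6 arrays (smallest log2 ratio 1.47, largest adjusted p = 0.0121). Of 22 genes of the BMP pathway 3 rose without added BMP2 (13.6%, against 1.53% of all genes). *Id2* and *Id3*, which block MyoD-type factors and are targets of BMP signals, measured 624, 602 and 606 at d3 and 1334, 1537 and 1635 at d6 and 826, 827 and 901 at d3 and 1445, 1317 and 1343 at d6 (log2 ratio 1.29, SE 0.11, adjusted p = 3.69e-08 and log2 ratio 0.68, SE 0.07, adjusted p = 1.32e-06). *Id1*, of the same family, was 1196 ± 65.1 at d3 and 1369.9 ± 14.6 at d6 and was not called (log2 ratio 0.20, adjusted p = 0.0768). *Bmper*, a secreted protein that binds BMPs, rose from 575 to 1482 (log2 ratio 1.38, adjusted p = 6.3e-06). None of 16 genes of the TGF-beta pathway was called, with 10 at an unadjusted p under 0.05, against 4604 of all 18194 genes.

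Of 32 Wnt pathway genes 4 were higher and 1 lower (12.5% and 3.1%, against 1.53% and 0.973% of all genes). The receptor gene *Fzd1* measured 2078, 1794 and 1923 at d3 and 3959.7, 4029 and 4055 at d6 (log2 ratio 1.06, SE 0.08, adjusted p = 9.2e-09), whereas *Fzd5*, another receptor, measured 524, 550.0 and 598 at d3 and 301, 261 and 290.1 at d6 (log2 ratio -0.97, SE 0.08, adjusted p = 1.96e-08). For neither receptor did the d3 and d6 arrays overlap, as for nearly all probe sets called. *Wnt10a*, a ligand, rose from 609 to 1033 (log2 ratio 0.76, adjusted p = 0.00461), and the secreted inhibitors *Sfrp2* and *Dkk2* rose from 72.1 to 180.2 (log2 ratio 1.35, adjusted p = 4.8e-06) and from 42.7 to 109.6 (log2 ratio 1.39, adjusted p = 0.00056). The call of *Wnt10a* was lost without any 1 of the 6 arrays (smallest log2 ratio 0.71, largest adjusted p = 0.0253) and that of *Dkk2* without d3 replicate 2 (log2 ratio 1.21, adjusted p = 0.00643). *Notch1*, the receptor that keeps muscle progenitors undifferentiated, was the 1 of 17 Notch pathway genes called, lower at d6, from 1033 to 544 (log2 ratio -0.93, adjusted p = 4.21e-07). Of 20 chemokines and cytokines 3 were higher and 3 lower (15% each, against 1.53% and 0.973% of all genes). Higher were *Il6* from 57 to 214 (log2 ratio 1.95, adjusted p = 0.000117), *Lif* from 163 to 390.1 (log2 ratio 1.27, adjusted p = 2.61e-05) and *Il18* from 682 to 1034 (log2 ratio 0.61, adjusted p = 0.000218). Lower were *Ccl9*, *Cxcl5* and *Cxcl1*, the last from 448 to 209 (log2 ratio -1.10, adjusted p = 8.42e-06). The call of *Il18* was lost without d3 replicate 1 or 2, or d6 replicate 1 or 2 (smallest log2 ratio 0.53, largest adjusted p = 0.00277). None of 30 genes of the interferon response and antigen presentation was called (4 at an unadjusted p under 0.05, against 4604 of all 18194 genes). Of the 30 genes 16 were dim. Of 12 complement genes *Serping1*, the C1 inhibitor, fell from 570.3 to 340.0 (log2 ratio -0.75, adjusted p = 0.000262).

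Genes of cell division were low at both days, with a median log2 ratio of d3 over d0 of -3.64 for the mitosis list. *Cdk1*, the mitotic kinase, was 8058 ± 116 at d0 and 677 ± 53.8 at d3 and 958 ± 71.1 at d6 (log2 ratio 0.50, adjusted p = 0.00056), under the fold threshold. *Mki67*, a marker of cycling cells, was 4978 ± 116 at d0 and 399.6 ± 39.6 at d3 and 528 ± 77.8 at d6 (log2 ratio 0.40, adjusted p = 0.0503). Of 30 mitosis genes 2 were higher (6.67%, against 1.53% of all genes). These were *Cenpf*, a kinetochore protein, from 191 to 328 (log2 ratio 0.78, adjusted p = 0.00083), and *Mad2l1*, of the spindle checkpoint, from 495 to 764 (log2 ratio 0.65, adjusted p = 0.000879). The median of the list was 0.36, and 29 of 30 ratios were positive, against 8467 of 18194 over all genes. The call of *Cenpf* was lost without d3 replicate 1 or 2, or d6 replicate 3 (smallest log2 ratio 0.72, largest adjusted p = 0.00765) and that of *Mad2l1* without d3 replicate 1 or 2, or d6 replicate 2 (smallest log2 ratio 0.52, largest adjusted p = 0.0101). Of 30 DNA replication genes 2 were higher (6.67%, against 1.53% of all genes). *Lig1*, the replicative ligase, rose from 197 to 457 (log2 ratio 1.23, adjusted p = 6.08e-06) and *Cdc6*, which loads the helicase, from 43.2 to 83 (log2 ratio 0.94, adjusted p = 0.000199). None of 16 CDK inhibitors, pocket proteins and D cyclins was called, with 10 at an unadjusted p under 0.05, against 4604 of all 18194 genes. Other lists had 1 member called or none. *Cyp51*, of cholesterol synthesis, rose from 1178 to 2622 (log2 ratio 1.15, adjusted p = 1.19e-08), *P4ha2*, a collagen prolyl hydroxylase in the hypoxia list, from 985 to 1568 (log2 ratio 0.67, adjusted p = 1.99e-06), and *Bhlhe40*, a repressor of the circadian list, from 1807 to 3143 (log2 ratio 0.80, adjusted p = 7.71e-05). *Myl9*, a light chain in the list of smooth muscle genes, fell from 5467 to 3422 (log2 ratio -0.68, adjusted p = 5.76e-07).

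Whether the same interval looked alike in cells with *miR-378* was asked on the 6 d3 and d6 arrays of C2C12-pMirn378, which entered the comparison above only through the pooled spread. There 553 probe sets were higher (1.23%) and 272 lower (0.603%). Of the 439 higher in C2C12-pMirn0, 265 were called higher in C2C12-pMirn378 too (60.4% of 439 and 47.9% of 553), and 429 had the same sign. Their median log2 ratio was 0.93 in C2C12-pMirn0 and 0.80 in C2C12-pMirn378. Of the 434 lower, 164 were called lower there too (37.8% of 434 and 60.3% of 272), and 407 had the same sign, with medians of -0.80 and -0.57.  *Ighm* was 29.9 ± 15.3 at d3 and 575 ± 38.8 at d6 in C2C12-pMirn378 and *Cxcr6* 1.99 ± 1.16 at d3 and 116 ± 50.8 at d6, so that transcripts near background at d3 were higher at d6 there too. By list, C2C12-pMirn378 had 8 of 32 stress genes lower (against 0.797% of all genes), and 6 of 26 early genes and 14 of 21 matricellular genes higher (against 1.79%), and the median log2 ratio of its 30 mitosis genes was -0.11. Its excitation-contraction list had 2 of 24 genes higher. Medians there were -0.04 for the respiratory chain and -0.16 for muscle-type energy enzymes, against 0.14 and 0.25 in C2C12-pMirn0. For myosin heavy chains and fast fibre isoforms they were -0.23 and 0.05, against 0.14 and 0.27.

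The difference between the lines was itself called for 3 probe sets in the positive direction (0.00665%), a larger ratio in C2C12-pMirn0, and 28 in the negative direction (0.0621%). Over the alternatives run these counts ranged from 0 to 30 and from 1 to 86. The fit of these 4 groups alone gave 0 positive (1196 with an unadjusted p under 0.05) and 1 negative. *Cxcl12*, a chemokine, was 385 ± 45.8 at d3 and 237 ± 29.9 at d6 in C2C12-pMirn0 and 209.7 ± 20.4 at d3 and 547 ± 42.5 at d6 in C2C12-pMirn378 (log2 difference -2.08, SE 0.25, adjusted p = 0.000181). *Dhrs3*, among the largest falls above, was 203 ± 26.6 at d3 and 194 ± 49.2 at d6 in C2C12-pMirn378 (log2 difference -1.78, SE 0.23, adjusted p = 0.000427), and *Plac8* 312 ± 15.3 at d3 and 319 ± 25.9 at d6 (log2 difference -1.64, SE 0.24, adjusted p = 0.00203). *Cxcl5* was 408 ± 75.4 at d3 and 351 ± 96.6 at d6 (log2 difference -1.66, SE 0.26, adjusted p = 0.00334). In C2C12-pMirn378 neither *Dhrs3*, *Plac8* nor *Cxcl5* was called between d3 and d6. *Id3* had a larger ratio in C2C12-pMirn378, 357 ± 29.1 at d3 and 1358 ± 88.2 at d6 (log2 difference -1.25, SE 0.10, adjusted p = 1.27e-06), and so did *Timp3*, 903 ± 79.9 at d3 and 3937 ± 152 at d6 (log2 difference -0.85, SE 0.13, adjusted p = 0.00203), *Mmp2*, 872 ± 49.5 at d3 and 2979 ± 134 at d6 (log2 difference -1.17, SE 0.14, adjusted p = 9.78e-05), and *Col12a1*, 1210.1 ± 40.2 at d3 and 4458 ± 657 at d6 (log2 difference -1.01, SE 0.14, adjusted p = 0.00146). Each of these genes was lower at d3 there than in C2C12-pMirn0, by the values given above. Only *Timp3* had the higher d6 mean in C2C12-pMirn378. *Lpl* went the other way there, 4332 ± 384 at d3 and 6865 ± 651 at d6 (log2 difference -1.26, SE 0.13, adjusted p = 3.08e-05). *Stmn2*, a regulator of microtubules, rose more in C2C12-pMirn0 (269 ± 16.9 at d3 and 830.5 ± 65.7 at d6 against 284 ± 19.7 at d3 and 528 ± 3.57 at d6; log2 difference 0.73, SE 0.11, adjusted p = 0.00251). That was read on the dimmer of its probe sets, and on the brightest one the difference was not called (log2 difference 0.48, adjusted p = 0.0861). The calls of *Cxcl5*, *Plac8* and *Stmn2* were lost on leaving out any of 8, 10 and 10 of the 12 arrays in turn (largest adjusted p = 0.0177, 0.00942 and 0.0116). Those of *Timp3* and *Col12a1* were lost on leaving out any of 7 and 4 of them (largest adjusted p = 0.00943 and 0.00656).

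With BMP2, 300 probe sets were higher (0.665%) and 811 lower (1.8%) at d6 than at d3. Of the 439 that rose without BMP2, 17 were called higher with it and 73 lower, 159 had the same sign, and the median log2 ratio was -0.16. Of the 434 that fell without BMP2, 59 were called lower and 14 higher with it, 282 had the same sign, and the median was -0.15. The difference between the untreated and the BMP2 interval was called for 1111 probe sets in the positive direction (2.46%), a larger ratio without BMP2, and 605 in the negative (1.34%), a comparison that shares the untreated arrays with the main one.

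**Figure D5:**
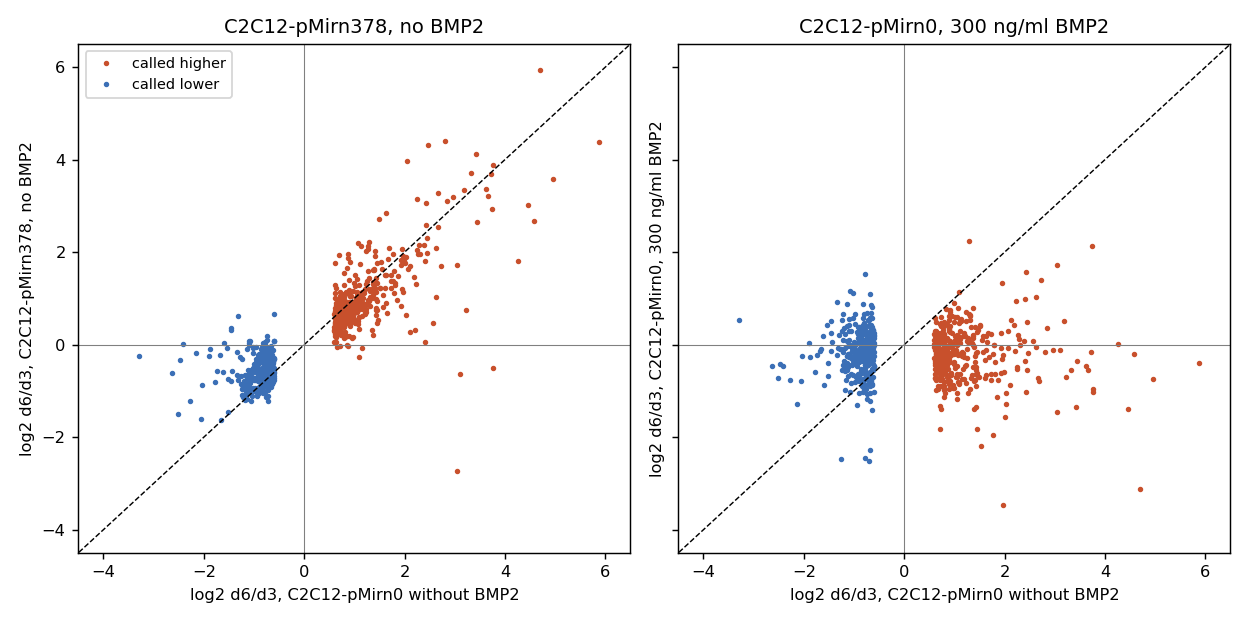
Log2 ratio of d6 over d3 in C2C12-pMirn378 without BMP2 (left) and in C2C12-pMirn0 with 300 ng/ml BMP2 (right) against that in C2C12-pMirn0 without BMP2, 1 point for each of the 411 higher (red) and 361 lower (blue) probe sets with 1 symbol; the dashed line marks equal ratios. Most points had the same sign in C2C12-pMirn378, with smaller median ratios over all probe sets called, and with BMP2 they spread about 0.

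*Postn* was 15882 ± 775 at d3 and 10891 ± 191 at d6 with BMP2, above the untreated level at d3 and near it at d6 (log2 difference 3.87, SE 0.13, adjusted p = 2.35e-14). *Casq1* was 679 ± 9.16 at d3 and 434 ± 24.3 at d6, so that it was not higher at d6 with BMP2 (log2 difference 2.45, SE 0.15, adjusted p = 6.2e-10), and *Mef2c* was 436 ± 1.5 at d3 and 517 ± 26.1 at d6 (log2 difference 0.96, SE 0.16, adjusted p = 0.000236). *Col8a1* fell with BMP2 where it rose without it, 1059.7 ± 62.6 at d3 and 299 ± 25.9 at d6 (log2 difference 3.29, SE 0.15, adjusted p = 4.62e-12), and so did *Mgp*, 2645 ± 167 at d3 and 747 ± 75.1 at d6 (log2 difference 2.55, SE 0.13, adjusted p = 2.77e-11). Of the immediate early genes 7 of 26 had a larger ratio without BMP2 (against 4.03% of all genes), *Fos* among them (log2 difference 1.11, SE 0.13, adjusted p = 5.02e-06), and *Egr1* rose in both intervals (log2 ratio 0.75 with BMP2, log2 difference 0.16, SE 0.16, adjusted p = 0.665). Of the stress list 11 of 32 members had a smaller ratio without BMP2 (against 1.82%) and 3 rose with BMP2 (against 0.951%). *Atf3* was 475 ± 20.01 at d3 and 748 ± 73.2 at d6 with BMP2 (log2 difference -1.87, SE 0.19, adjusted p = 4.92e-07), opposite to its fall without it. Of the mitosis list 25 of 30 had a larger ratio without BMP2, and 25 were called lower with BMP2 between d3 and d6 (against 2.66%). *Mki67* was 486 ± 58.1 at d3 and 185 ± 15.5 at d6 with BMP2 (log2 difference 1.78, SE 0.18, adjusted p = 4.41e-07).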

How the data were processed

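Values came from the series matrix of 30 Affymetrix GeneChip Mouse Genome arrays, in 10 groups of 3. According to the labels and the study's methods, the authors hybridised RNA, processed the scans in R 2.4.1 with RMA and quantile normalization, and deposited linear intensities. The table holds 45101 probe sets, values from 0.0561 to 40201 and no detection calls, so that the number of arrays limits the precision. Values near 0 lie below what RMA is known to give, and the step that made them is not given in the sources used here.

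Intensities were put on the log2 scale without further normalization. One linear model with a mean for each of the 10 groups was fitted to all 30 arrays with limma 3.58.1 in R 4.3.3 (20 residual and 1.2 prior degrees of freedom), followed by empirical Bayes moderation and Benjamini-Hochberg adjustment over all probe sets, two-sided. The fit was tested on simulated data. Adjusted p-values in the text are from this limma fit, and ± gives the SD of 3 arrays. Gene symbols came from GEO's platform annotation: 34958 probe sets had 1 symbol, 932 several and 9211 none, and 34754 matched RefSeq by Entrez identifier. A gene of a list was read by its brightest probe set. Promoter windows are RefSeq sequence of GRCm38.p6.

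Members, lists and tests were chosen with earlier results of these data known. Named genes were the 15 largest rises and falls (called, without overlap between days, 1 symbol, higher mean at or above the median of all values), the muscle genes plotted in the study, up to 4 called members of each list in each direction and any that went against most of them, and the 5 largest differences in each direction between lines and between treatments. Further called members, and genes given as not called, were added after their values were seen. Alternatives tried were leaving out dim probe sets, fitting only the groups compared, blocking on the replicate number, eBayes with trend, array weights, common-median scaling, quantile normalization, an offset of 16, values under 50 set to 50, all probe sets of a gene averaged, and leaving out each array.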

Additional observations from a re-analysis of the deposited data

Results flagged for a closer look

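The change from d3 to d6 in C2C12-pMirn0 without BMP2 differed from that of another group by the test of the difference itself for 17 genes named by the rule for differences, and none of these differences was weighed further. Against C2C12-pMirn378, a larger log2 ratio in C2C12-pMirn0 was measured for *Dscc1*, a cohesion factor of DNA replication (log2 difference 1.26, limma adjusted p = 0.00332), and *Stmn2* (0.73, adjusted p = 0.00251, against 0.48, adjusted p = 0.0861, on its brightest probe set). A smaller one was measured for *Slc6a2*, the noradrenaline transporter (-4.96, adjusted p = 0.00194), *Cxcl12* (-2.08, adjusted p = 0.000181), *Dhrs3* (-1.78, adjusted p = 0.000427), *Cxcl5* (-1.66, adjusted p = 0.00334) and *Plac8* (-1.64, adjusted p = 0.00203). *Slc6a2* was at 6.83 at d3 in C2C12-pMirn378, below the median of all values, and its difference was -1.86 with values under 50 set to 50. On the brightest probe set of *Slc6a2* the log2 ratio was -0.23 in C2C12-pMirn0 and 0.55 in C2C12-pMirn378. The calls of *Dscc1*, *Stmn2*, *Slc6a2*, *Cxcl5* and *Plac8* were lost on leaving out any of 10, 10, 8, 8 and 10 of the 12 arrays (largest adjusted p = 0.0158, 0.0116, 0.00783, 0.0177 and 0.00942), and those of *Cxcl12* and *Dhrs3* were not lost on leaving out any 1 array.

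Against the same interval with BMP2, the log2 ratio was larger without BMP2 for *Cxcr6* (log2 difference 7.83), *Ighm* (6.26), *Apol8* (5.85), *Asprv1* (5.70) and *Ly6g2* (5.43). It was smaller for *Mmp13*, the collagenase 3 of bone and cartilage (-4.45), *Nrip2* (-3.53), *Gsta2*, a glutathione transferase (-3.38), *Diras2* (-2.88) and *Chchd10*, a mitochondrial protein (-2.72). *Gsta2* was 330.4 ± 46.2 at d3 and 2619 ± 126 at d6 with BMP2 and 259 ± 37.5 at d3 and 197 ± 14.4 at d6 without it. With values under 50 set to 50 the difference of *Cxcr6* was 1.06 and no longer called (adjusted p = 0.0182), and those of *Ighm* and *Apol8* were 4.58 and 2.64. *Asprv1* and *Nrip2* lost the call on leaving out any of 2 and 7 of the 12 arrays (4.95 and -3.30 at the largest adjusted p, 0.00555 and 0.00739). On the brightest probe sets of *Nrip2* and *Diras2* the log2 ratios were 0.05 and -0.20 without BMP2 and 1.28 and 0.59 with it.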

How the results depend on the processing

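The calls between d3 and d6 rest most on which arrays give the spread. With the 6 arrays of the comparison alone, 8 probe sets were higher and 1 lower, and the share of higher among all called was 88.9% against 50.3%. Under the same restriction the difference between the lines gave 0 positive (1196 with an unadjusted p under 0.05) and 1 negative, and the difference from BMP2 566 and 290. With the 6 arrays, only bright probe sets and a trend in the prior, a setting chosen after seeing the data, 481 were higher and 389 lower, of which 369 and 309 were among the 439 and 434. With values under 50 set to 50, 621 were higher and 514 lower. The other alternatives gave 441 to 512 higher and 379 to 496 lower. Quantile normalization gave 55.4% higher among those called, and no scaling moved the median of all probe sets by over 0.1. For the difference between the lines, eBayes with trend and robust estimation gave 6 positive and 45 negative, and values under 50 set to 50 gave 30 and 86. Leaving out each array in turn gave 366 to 429 higher and 328 to 431 lower, 1 to 5 positive and 14 to 25 negative between the lines, and 932 to 1057 positive and 486 to 572 negative against BMP2.

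Deviations of same-numbered d3 and d6 replicates correlated at 0.05, -0.08 and -0.12, and those of differently numbered ones at -0.10 to 0.18. The deviations are from means of 3 arrays, so that these few correlations cannot decide whether the numbers pair the samples. With the replicate block 441 probe sets were higher and 448 lower, of which 432 and 422 were among those called without it. The block ended the calls of *Ripor3*, *Dscc1*, *Cxcl5* (between the lines), *Flnc* and *Cav3* (adjusted p = 0.00612, 0.00766, 0.00791, 0.00623 and 0.00509).

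Signs turned for 3 genes that were never called. *Ckm* was at -0.0225 with quantile normalization and -0.0559 to 0.0994 on leaving out 1 array, *Myh3* at -0.0727 and -0.0365 to 0.0895, and *Tpm3* on its brightest probe set at 0.0047 with array weights, 0.00911 with scaling to a common median and -0.0649 to 0.0526 on leaving out 1 array. Over all named genes and alternatives 2695 values kept their direction and side of the threshold, 345 no longer passed, 11 newly passed and 14 reversed. The 11 belong to *Myf6*, *Myh4* and *Trib3*, and the last of the 14 is *Fosb*, which had a ratio of 0 with values under 50 set to 50.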

Other observations

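Genes of amino acid supply outside the stress list were lower at d6 as well. They were picked after their values were seen and are a description only. *Cth*, of the transsulfuration pathway, fell from 1515 to 699 (log2 ratio -1.11, adjusted p = 7.25e-05). *Aldh1l2*, a mitochondrial folate enzyme, fell from 2887 to 1464 (log2 ratio -0.98, adjusted p = 3.62e-05), *Psph*, the last enzyme of serine synthesis, from 4720.2 to 2887 (log2 ratio -0.71, adjusted p = 7.99e-06), and *Gpt2*, the mitochondrial alanine transaminase, from 5529 to 2901 (log2 ratio -0.93, adjusted p = 3.61e-07). *Pck2*, the mitochondrial phosphoenolpyruvate carboxykinase, fell from 2243 to 1203 (log2 ratio -0.91, adjusted p = 3.97e-05), *Slc7a1*, the arginine transporter, from 4466 to 2483 (log2 ratio -0.84, adjusted p = 6.3e-06), and the hormone gene *Stc2* from 325 to 145 (log2 ratio -1.17, adjusted p = 9.99e-05). Of the list's own members, *Asns* and *Psat1*, which make asparagine and serine, were lower without passing the fold threshold (log2 ratio -0.47 and -0.52, adjusted p = 0.00174 and 0.00314). *Trib3* and *Atf4* each had a further probe set that was called, from 2073 to 941 (log2 ratio -1.15, adjusted p = 1.35e-05) and from 8554 to 5174 (log2 ratio -0.72, adjusted p = 0.000358), beside the brightest one that was not. The called probe set of *Atf4* and the brightest of *Trib3* can match other transcripts.

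Probe sets of the same gene did not always move alike. *Tpm3*, a slow-type tropomyosin gene with many isoforms, had 2 probe sets that rose, from 2652 to 6103 (log2 ratio 1.21, adjusted p = 4.94e-09) and from 2740.5 to 5716 (log2 ratio 1.06, adjusted p = 0.000373), while its brightest read 7394 ± 174 at d3 and 7393 ± 608 at d6. *Tpm2* had 1 probe set that fell, from 3982 to 1912 (log2 ratio -1.06, adjusted p = 5.6e-08), and its brightest did not pass the fold threshold (log2 ratio -0.47). Which transcripts these probe sets match was not tested. Of the 361 lower probe sets with 1 symbol, 184 (51.0%) were not the brightest of their gene, against 133 of 411 higher ones (32.4%) and 48.0% of all. Where a lower probe set was not the brightest, the brightest had the opposite sign for 28 and was called lower for 50, and for higher ones these numbers were 9 and 78.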
